A study of Arabidopsis thaliana with 32 samples.

Results

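Roots of *Arabidopsis thaliana* seedlings that had been heated for 3 h were compared at 21 h and at 9 h after the end of the heat, the last step of recovery in the series. The arrays were chosen by the sample titles, which gave 4 of the 32 arrays: 2 of roots at 9 h of recovery and 2 of roots at 21 h of recovery. All groups used here, shoots included, were the Col-0 accession, stock N1092, with no mutation or transgene named in the labels. The growth room was kept at 24 °C with a light period of 16 h, and the plants stood on Murashige and Skoog medium. On day 16, when the light had been on for 3 h, the temperature was set to 38 °C, and after the heat to 25 °C for recovery. By these times the 9 h roots were taken 15 h after lights on, which is 1 h before the dark, and the 21 h roots were taken 3 h after the lights came on again the next day. The 12 h between the groups therefore held the 8 h dark period, so that length of recovery, clock hour and night cannot be told apart. Plants that were never heated were not among the samples used here. Nothing in the labels tells whether a group's 2 replicates came from separate cultures, so the spread behind the p-values is that between arrays and may be technical.

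During heat, plant cells make large amounts of heat shock proteins, chaperones that hold or refold damaged proteins, and their transcripts are withdrawn again once the heat ends. Other parts of the transcriptome follow the day: the circadian clock is a loop of genes that repress one another at set hours, and it drives many outputs in light and dark. In roots, growth rests on the loosening of cell walls by expansins and xyloglucan enzymes and on sugar delivered from the shoot. Mitochondria carry a small genome of their own that encodes parts of the respiratory chain.

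Each value is the deposited MAS5 signal of a probe set, a group of short probes on the ATH1 array. It is a linear brightness that the arrays share on one scale, and the number of arrays limits its precision. Differences are 21 h minus 9 h on the log2(signal + 10.7) scale, with the standard error (SE) of the linear model, and for dim probe sets this scale understates the change. A probe set is said to have risen or fallen where limma's Benjamini-Hochberg adjusted p was below 0.05 and the log2 difference was at least 1 in size. Levels were compared within a probe set only.

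The median signal was 45.9 and 46.1 on the arrays at 9 h and 46.4 and 46.5 on those at 21 h, and the correlation of log2 signals between the 2 arrays was 0.990 at 9 h and 0.991 at 21 h. The summed signal of 7 root cell type markers was 3805 to 4073 at 9 h and 3351 to 3505 at 21 h in roots, against 533 to 1080 in the shoots of the same times. The summed signal of 12 shoot and leaf markers was 364 to 515 at 9 h and 560 to 763 at 21 h in roots, against 34247 to 49031 in shoots. The sum of the root markers was lower at 21 h, though no single member reached the thresholds for a fall. Of the 7, 4 had differences below 0, the lowest at -0.32, and 3 above 0, while 1 rose and 0 fell. At adjusted p below 0.05, 2 of them were higher and 0 lower, with a median difference of -0.02. Within roots, 1 of the 12 shoot markers rose and 6 were higher at adjusted p below 0.05 (0.947% and 5.15% of all probe sets). RCA, the activase of the carbon-fixing enzyme Rubisco, had signals of 33.5 and 35.3 at 9 h and 83.3 and 64.1 at 21 h (0.89 ± 0.13). LHCB4.2, a light-harvesting protein of photosystem II, had 18.9 and 13.4 at 9 h and 63.9 and 28.4 at 21 h (1.01 ± 0.20). Its call ended without replicate 1 at 21 h (0.55), without replicate 2 at 9 h (0.87) and after quantile normalization (0.93). It also ended when only the 4 arrays of the comparison were fitted (limma adjusted p = 0.0598). The part of this shoot signal in the results below was not tested. In whole roots, fewer cells of a type and less RNA per cell cannot be told apart.

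Across the 16782 probe sets tested, 159 rose from 9 h to 21 h of recovery (0.947%) and 188 fell (1.12%), together 2.07%. At adjusted p below 0.05 and any size, 865 were higher (5.15%) and 845 were lower (5.04%), and the median difference over all of them was 0.01. The smallest difference that passed was 1.00 in size and the nearest that missed for size was 0.997. Of the risen probe sets, 29 rose by at least 2 on the log2 scale and 12 by at least 3. Of the fallen, 38 fell by at least 2 and 16 by at least 3. A single gene was named for 68 of the risen and 99 of the fallen probe sets, and a symbol other than the locus was known for 13 and 32 of these. The 91 risen and 89 fallen probe sets without a single named gene stand in the counts alone. The counts were 145 to 211 risen and 161 to 216 fallen when each of the 4 arrays was left out in turn.

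The levels of these probe sets at the other 6 root times showed where the 2 compared times stood in the whole course. The median signal of the 159 risen probe sets was 155 at 0.25 h of heat, 137 at 1 h and 105 at 3 h. It was 65.9 at 1 h of recovery, 74.8 at 3 h, 32.3 at 9 h and 145 at 21 h. For the risen probe sets 9 h was thus the low point: 109 of 159 (68.6%) had their lowest mean there, as did 11.9% of all probe sets kept, and the choice of risen probe sets itself favours that time. Their median at 21 h lay within the 130 to 155 of the first 3 times of heat, which were taken 3.25 to 4 h after lights on. The 188 fallen probe sets had a median signal of 49.4 at 0.25 h of heat, 302 at 3 h of heat, 191 at 1 h of recovery and 108 at 3 h. It was 217 at 9 h and 54.7 at 21 h. Of the fallen probe sets, 93 of 188 (49.5%) were highest at 3 h of heat, as were 17.0% of all probe sets kept, and 61 (32.4%) were highest at 9 h of recovery (12.9% of all kept), a time that the choice of fallen probe sets itself favours.

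**Figure D1:**
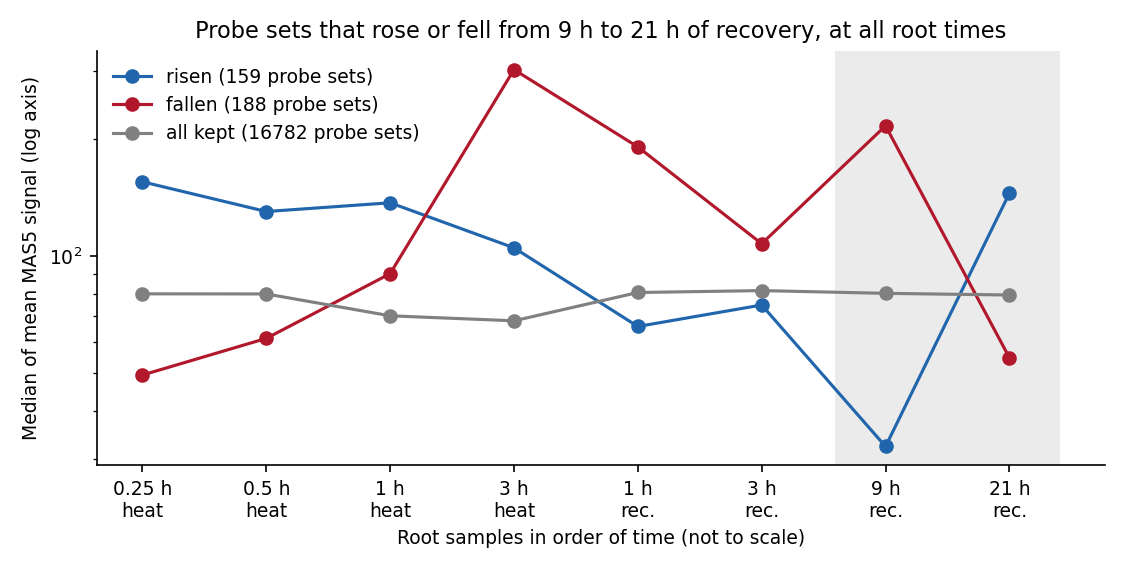
Median over probe sets of the mean MAS5 signal (log axis) at the 8 root times, for the 159 probe sets that rose, the 188 that fell and all 16782 kept; each point rests on 2 arrays per probe set and the shaded times are the ones compared. The risen group was lowest at 9 h of recovery (32.3) and the fallen group was high at 3 h of heat (302) and again at 9 h of recovery (217).

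Chaperone genes were among the steepest falls between 9 h and 21 h. Of 17 cytosolic and organelle chaperone genes with a symbol, 16 were tested, 0 rose and 4 fell (1.12% of all probe sets fell). Their median difference was -0.22 against 0.01 over all probe sets. ATHSP22.0, the small heat shock protein of the endoplasmic reticulum, had signals of 897 and 747 at 9 h and 28.3 and 21.6 at 21 h. It had been at 4471 at 3 h of heat and at 13.9 at 0.25 h, so that the 21 h roots were near the level of the start of the heat. The fall was 4.54 on the log2 scale (-4.54 ± 0.23, limma adjusted p = 1.56e-13). In the genes that fell or rose and are named here, the arrays of the times did not overlap, which the way they were chosen largely fixes, so it is no support of its own.

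HSA32, a protein needed to keep acquired heat tolerance over time, had signals of 570 and 475 at 9 h and 96.6 and 83.9 at 21 h (-2.40 ± 0.24, adjusted p = 6.77e-08). Its course had 2 peaks, since its mean was 4461 at 3 h of heat, 206 at 3 h of recovery and 523 at 9 h. Fes1A, which helps Hsp70 release its nucleotide, went from 264 and 230 to 96.5 and 104 (-1.21 ± 0.22). Hop3, a co-chaperone that joins Hsp70 to Hsp90, went from 358 and 373 to 172 and 175 (-1.03 ± 0.20), and lay just under the size threshold (-0.998) without replicate 2 at 9 h. Its relative Hop2 was at 490 and 527 against 330 and 443 (-0.40 ± 0.16, adjusted p = 0.124), which did not pass. The cytosolic Hsp70-2 moved the other way without reaching the threshold of size, from 69.2 and 86.4 to 149 and 175 (0.97 ± 0.26, adjusted p = 0.0149), and it did reach it without replicate 1 at 21 h or without replicate 2 at 9 h. In 14 genes of folding and stress in the endoplasmic reticulum 0 passed. The calcium-binding chaperone CRT1b (0.56 ± 0.11) was the 1 that was higher at adjusted p below 0.05 (5.15% of all probe sets).

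**Figure D2:**
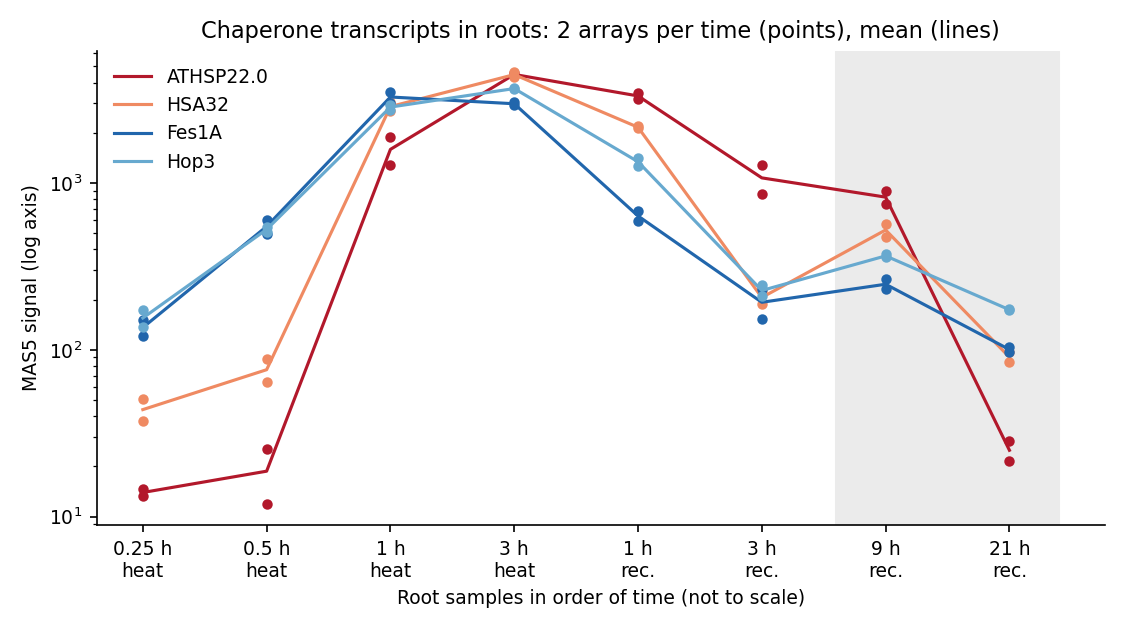
MAS5 signal (log axis) of the 4 listed chaperone genes that fell, at the 8 root times in order. Points are the 2 arrays of a time, lines join their means and the shaded times are the ones compared. ATHSP22.0 went from a mean near 822 at 9 h to near 25 at 21 h, and HSA32 was higher at 9 h than at 3 h of recovery.

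The 5 steepest falls among genes for which the annotation gives no symbol were larger than those of the named chaperones other than ATHSP22.0. Loci without a symbol were not in the chaperone list, whatever their role. These loci may themselves encode chaperones, and the chaperone counts above do not cover them. AT1G53540 had signals of 1112 and 1083 at 9 h and 58.8 and 47.9 at 21 h (-4.12 ± 0.31). AT1G52560 went from 911 and 757 to 55.0 and 44.1 (-3.81 ± 0.27), and AT2G29500 from 732 and 748 to 74.2 and 48.7 (-3.40 ± 0.36). These 3 loci had been at 4805 to 5199 at 3 h of heat, and AT1G52560 had been at 85.1 at 3 h of recovery before the 9 h level. AT5G07330 went from 408 and 292 to 17.4 and 13.5 (-3.77 ± 0.23), after 1769 at 3 h of heat and 48.1 at 3 h of recovery. AT2G23910 differed from the others in its course: it was at 17.9 to 34.2 through the heat, 83.4 at 3 h of recovery, 544 and 387 at 9 h and 30.5 and 31.6 at 21 h (-3.49 ± 0.15).

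Most of the named mitochondrion-encoded genes that were tested fell. Of 15 mitochondrion-encoded genes, 14 were tested, 0 rose, 9 fell (1.12% of all probe sets) and 12 were lower at adjusted p below 0.05 (5.04% of all), with a median difference of -1.15 against 0.01 overall. The summed signal of the group was 2243 and 2268 at 9 h and 993 and 1020 at 21 h. The genes that fell lay in several roles: nad6, nad5, nad4L and nad9 encode subunits of complex I, cox1 and cox2 subunits of cytochrome oxidase, and ccb203, ccb206 and ccb452 parts of the machinery that matures c-type cytochromes.

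Of the subunit genes, nad6 had signals of 275 and 289 at 9 h and 45.1 and 51.4 at 21 h (-2.31 ± 0.14, adjusted p = 1.50e-11). cox2 went from 123 and 134 to 14.9 and 20.0 (-2.30 ± 0.18), and cox1 from 229 and 198 to 89.7 and 82.2 (-1.21 ± 0.13). The 2 probe sets of nad5 both fell, one by 2.29 (from 145 and 187 to 25.4 and 24.9) and one by 1.61 (from 118 and 146 to 32.1 and 39.7). nad4L fell from 176 and 162 to 49.0 and 56.7 (-1.50 ± 0.13) and nad9 from 188 and 159 to 60.1 and 63.5 (-1.34 ± 0.14).

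Among the cytochrome maturation genes, ccb203 went from 48.5 and 44.5 to 10.1 and 14.96 (-1.31 ± 0.20), ccb452 from 317 and 302 to 158 and 123 (-1.09 ± 0.14) and ccb206 from 78.4 and 94.3 to 37.4 and 36.3 (-1.02 ± 0.14). Without 1 array the last pair lay under the threshold of size: ccb452 at -0.93 without replicate 2 at 21 h and ccb206 at -0.90 without replicate 2 at 9 h. nad1 has several probe sets and its brightest, which stood for it in the count, did not pass, while another fell from 79.3 and 86.7 to 34.8 and 32.3 (-1.08 ± 0.12). ccb382, of the same maturation machinery, had 247 and 230 at 9 h and 238 and 214 at 21 h. When the added constant was made 4 times larger, 5 of the 14 genes fell. Probe set names ending in _s_at mark those that can read several near-identical transcripts, which holds for nad6, ccb452 and one of nad5.

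Earlier in the course, nad6 was at 46.9 at 0.25 h of heat, 542 at 3 h of heat and 194 at 3 h of recovery, and cox2 at 10.6, 527 and 148. The summed signal of the group was 1535 and 1421 at 0.25 h of heat, above that at 21 h. Signal from 25S ribosomal RNA was 571 and 279 at 9 h and 339 and 572 at 21 h, and so overlapped between the times. The actin 3′/5′ ratio, a sign of RNA length, was 11.2 to 16.1 at 9 h and 11.9 to 13.1 at 21 h, which overlapped. The GAPDH ratio was 1.47 to 1.85 at 9 h and 1.36 to 1.46 at 21 h. It did not overlap, though the nearest arrays lay at 1.467 and 1.464, and its part in these results was not tested. In 12 tested genes of the respiratory chain outside the mitochondrial genome 0 passed, and 3 were higher at adjusted p below 0.05 (5.15% of all probe sets). Among them was NDB2, an alternative NADH dehydrogenase, at 140 and 170 against 239 and 253 (0.64 ± 0.13). Of 69 plastid-encoded genes, 0 passed and 3 were lower at adjusted p below 0.05 (5.04% of all probe sets), with a median of -0.22. They were cemA (-0.60 ± 0.16), petA (-0.48 ± 0.15) and ndhI (-0.47 ± 0.15). Without replicate 1 at 9 h, cemA stood at -0.38 and ndhI at -0.11 (limma adjusted p = 0.304 and 0.805).

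**Figure D3:**
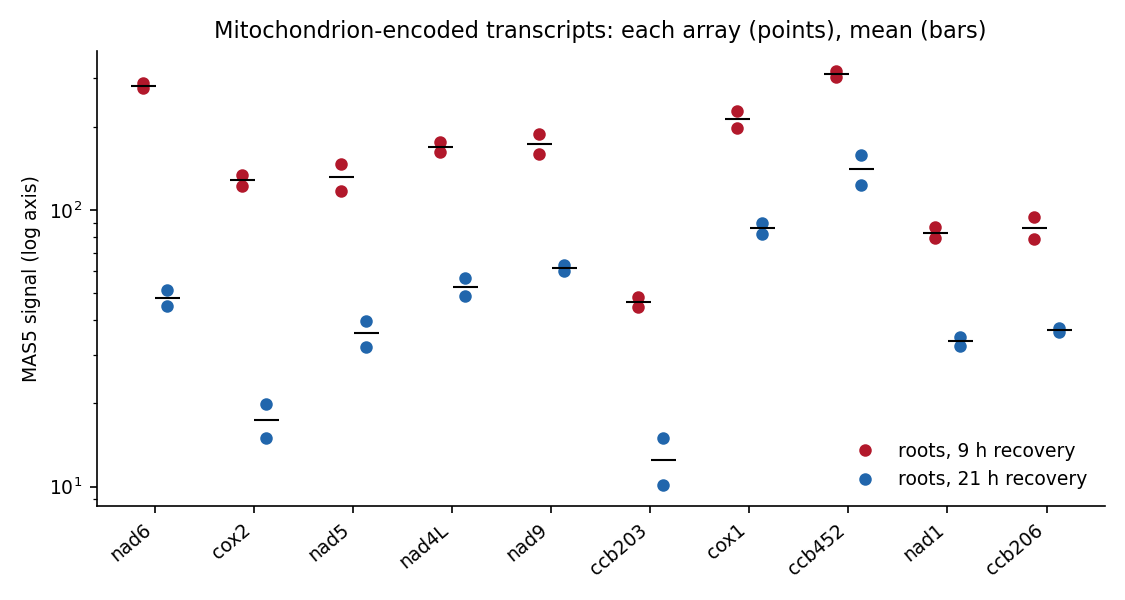
MAS5 signal (log axis) of 10 mitochondrion-encoded genes in roots; points are the 2 arrays of each time and bars their mean. The genes were chosen because they fell, from nad6 (275 and 289 to 45.1 and 51.4) to ccb206 (78.4 and 94.3 to 37.4 and 36.3); nad1 is shown by a probe set other than the one counted for it, which did not pass.

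Of 14 genes of clock and light signalling, 13 were tested, 1 rose and 2 fell (0.947% and 1.12% of all probe sets). GI, a clock protein that acts in the timing of flowering, had signals of 46.4 and 58.8 at 9 h and 160 and 145 at 21 h (1.37 ± 0.11, adjusted p = 2.01e-09). It had been at 185 at 0.25 h of heat and at 434 at 1 h of recovery, so 9 h was its lowest root time. COR27, a cold-regulated repressor within the clock, had 40.7 and 30.0 at 9 h and 0.787 and 1.17 at 21 h (-1.97 ± 0.20, adjusted p = 1.30e-07). Its level was 1.60 at 0.25 h of heat and 73.3 at 3 h of recovery. CCL, whose transcript is known to be broken down at set hours, went from 277 and 218 to 119 and 57.9 (-1.44 ± 0.20), and to -0.99, just under the threshold of size, without replicate 2 at 21 h.

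A pair of carbon metabolism genes fell steeply. ICL, isocitrate lyase of the glyoxylate cycle, through which carbon from fat is turned to sugar, had signals of 323 and 270 at 9 h and 71.5 and 23.5 at 21 h (-2.53 ± 0.28, adjusted p = 4.30e-07). At the other root times its mean was 38.0 to 103, so that 9 h stood above all of them. PDC2, pyruvate decarboxylase of alcoholic fermentation, went from 552 and 489 to 115 and 74.4 (-2.36 ± 0.20, adjusted p = 2.93e-09). It was at 494 at 1 h of recovery and at 143 at 0.25 h of heat.

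Of 16 genes of branched-chain amino acid and low-energy catabolism, all tested, 0 passed and 6 were lower at adjusted p below 0.05 (5.04% of all probe sets), with a median of -0.29. They were MGL, which splits methionine (203 and 182 against 111 and 87.9, -0.89 ± 0.20), MCCA and MCCB, the 2 subunits of an enzyme of leucine breakdown (-0.86 ± 0.18 and -0.59 ± 0.11), IVD of the same pathway (-0.69 ± 0.18), PPDK, which remakes phosphoenolpyruvate (-0.77 ± 0.16), and DELTA-OAT of ornithine breakdown (-0.73 ± 0.12). Without replicate 2 at 21 h, IVD stood at -0.39 (limma adjusted p = 0.392). In the 10 autophagy genes 0 passed, and 4 ATG8 genes, whose protein coats the growing autophagosome, were lower at adjusted p below 0.05 (5.04% of all probe sets). ATG8H was at 389 and 375 against 223 and 207 (-0.80 ± 0.13), followed by ATG8D (-0.72 ± 0.12), ATG8E (-0.55 ± 0.15) and ATG8B (-0.44 ± 0.10). All 10 differences of that list were below 0.

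Of 15 phenylpropanoid, flavonoid and lignin genes, 12 were tested, 0 rose and 3 fell (1.12% of all probe sets fell), with a median of 0.04. UGT78D1, which adds rhamnose to flavonols, had signals of 138 and 132 at 9 h and 35.4 and 38.3 at 21 h (-1.61 ± 0.19, adjusted p = 9.88e-07). UGT78D2, which adds glucose to flavonoids, went from 397 and 424 to 181 and 194 (-1.09 ± 0.11). CHIL, a helper protein of chalcone synthase, went from 313 and 409 to 115 and 156 (-1.35 ± 0.30), and its call ended without replicate 1 at 21 h (-1.15, limma adjusted p = 0.0545). In the wider list of 50 UDP-glycosyltransferases 40 were tested, 1 rose and 3 fell (0.947% and 1.12% of all probe sets), with a median of -0.07. The fall not yet given was that of UGT84A1, a glucosyltransferase of hydroxycinnamic acids, from 83.4 and 80.6 to 15.4 and 12.2 (-1.92 ± 0.15). UGT84A1 stood at 0.953 to 4.32 at the 6 earlier root times. UGT72E1, which acts on a lignin precursor, was the 1 that rose, from 148 and 147 to 321 and 484 (1.36 ± 0.23).

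Of 17 genes of cold, dehydration and abscisic acid response, 12 were tested and 2 fell (1.12% of all probe sets fell). The dehydrin COR47, a hydrophilic protein that protects membranes and proteins in dry or cold cells, had signals of 2271 and 2253 at 9 h and 1037 and 759 at 21 h (-1.34 ± 0.12, adjusted p = 2.18e-08). TIL, the temperature-induced lipocalin, went from 1860 and 1527 to 910 and 624 (-1.15 ± 0.18), and to -0.88 without replicate 2 at 21 h. Its plastid relative CHL went from 237 and 202 to 86.9 and 70.2 (-1.37 ± 0.14). All 3 were high at 3 h of heat, at 4896, 3534 and 387. The dehydrin LTI30 was at 1010 and 925 against 761 and 547 (-0.58 ± 0.18, adjusted p = 0.045), lower but under the threshold of size, and at -0.34 without replicate 2 at 21 h (limma adjusted p = 0.512).

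Single genes of other roles also fell. LPR1, a ferroxidase through which roots stop growing in low phosphate, had signals of 255 and 238 at 9 h and 94.2 and 77.5 at 21 h (-1.42 ± 0.15). NPF6.2 (AT2G26690), a nitrate transporter, went from 255 and 241 to 88.5 and 88.2 (-1.38 ± 0.12). It was the 1 fall among 13 tested genes of nitrate and sulfur uptake and assimilation (1.12% of all probe sets fell). SP1L5, of a family that binds microtubules, went from 171 and 121 to 62.5 and 50.9 (-1.20 ± 0.17), and to -0.97 without replicate 1 at 9 h. The kinase WNK9 passed narrowly (-1.003 ± 0.21) and lost its call without replicate 2 at 21 h (-0.90) or at 9 h (-0.98). It also lost it with arrays scaled to their 75th percentile (-0.98). Of 32 signalling peptide and defensin genes, 19 were tested and 1 fell (1.12% of all probe sets fell). It was the defensin PDF2.1, from 337 and 233 to 55.9 and 134 (-1.57 ± 0.28). PDF2.1 stood at -1.005 without replicate 1 at 21 h. Its relatives LCR69 (1786 and 1547 against 739 and 927, -0.997 ± 0.15) and PDF2.5 (202 and 261 against 370 and 481, 0.85 ± 0.17) differed at adjusted p below 0.05 in opposite directions and missed the threshold of size.

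Cell wall loosening genes made up the only one of the 29 lists in which more than 1 member rose. Of 28 expansins and xyloglucan enzymes, 23 were tested, 3 rose and 1 fell (0.947% and 1.12% of all probe sets), and 7 were higher at adjusted p below 0.05 (5.15% of all), with a median difference of 0.43 against 0.01 overall. EXPB2, a beta-expansin, had signals of 16.9 and 17.6 at 9 h and 119 and 213 at 21 h (2.61 ± 0.20, adjusted p = 9.64e-10). XTH18, which cuts and rejoins xyloglucan, went from 43.1 and 72.9 to 215 and 207 (1.73 ± 0.27). EXPA7, an expansin of root hair cells, went from 14.3 and 14.9 to 46.7 and 35.6 (1.03 ± 0.22), and to 0.87 without replicate 1 at 21 h.

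Other members came close: EXPA18, also of root hairs, was at 17.0 and 22.6 against 42.3 and 53.7 (0.94 ± 0.17), XTH21 at 9.33 and 10.5 against 24.8 and 30.6 (0.89 ± 0.14) and XTH16 at 20.4 and 17.7 against 41.2 and 41.7 (0.81 ± 0.13). These are low signals near the added constant, and with a smaller added constant 6 of the 23 rose. With a constant 4 times as large 2 rose, as after quantile normalization, and EXPA7 missed the threshold of size in both settings (0.55 and 0.93). The member that fell was EXLB1, an expansin-like gene, from 721 and 622 to 259 and 227 (-1.42 ± 0.15). Outside the list, GH9C1, an endoglucanase of the wall, rose from 26.6 and 23.3 to 75.2 and 95.2 (1.42 ± 0.20), and HRGP1, an extensin, from 60.6 and 55.9 to 128 and 153 (1.13 ± 0.19), the latter on a probe set that can read related transcripts. In 37 genes of wall polymer synthesis and acetylation, 29 were tested, 0 passed and 5 were higher at adjusted p below 0.05 (5.15% of all probe sets). Among them were TBL41 (0.97 ± 0.21), TBL21 (0.89 ± 0.19) and the mannan synthase CSLA03 (0.73 ± 0.20).

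**Figure D4:**
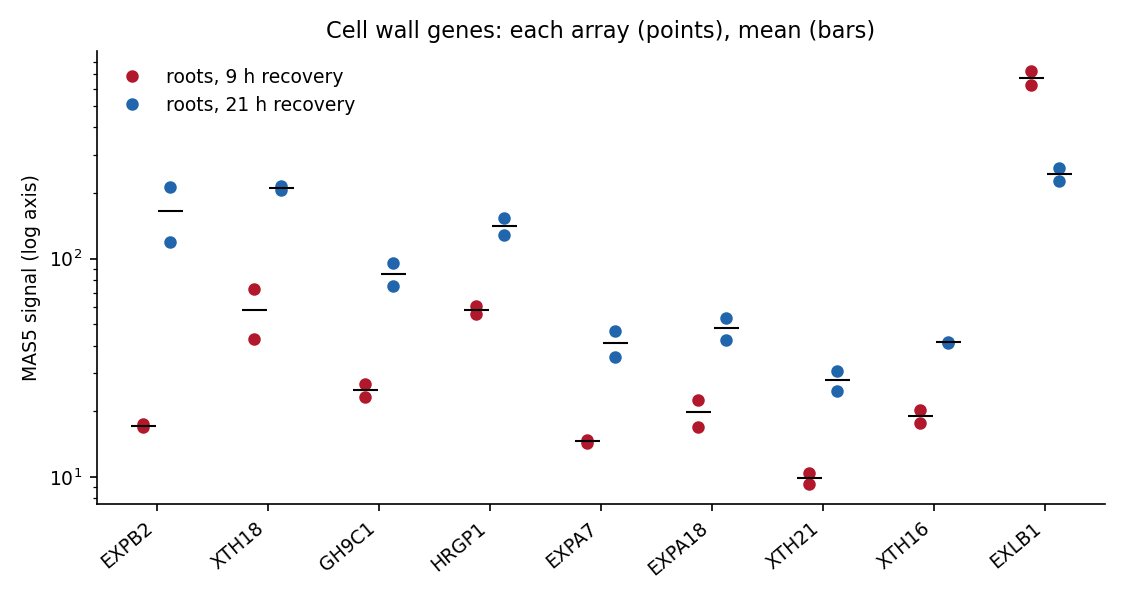
MAS5 signal (log axis) of 9 cell wall genes in roots; points are the 2 arrays of each time and bars their mean. EXPB2, XTH18, GH9C1, HRGP1 and EXPA7 rose, EXPA18, XTH21 and XTH16 were higher without reaching the threshold of size, and EXLB1 fell.

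Other genes with symbols that rose were spread over several roles. The cytochrome P450 CYP71B26 went from 45.7 and 38.1 to 148 and 142 (1.57 ± 0.12, adjusted p = 1.40e-09), the 1 rise among 13 tested P450 genes (0.947% of all probe sets rose). The transcription factor bZIP58 went from 18.0 and 15.1 to 54.9 and 49.0 (1.20 ± 0.15), after 191 at 3 h of heat. Of 14 glutathione transferases, enzymes that join glutathione to reactive compounds, 13 were tested. In these 1 rose and 4 were higher at adjusted p below 0.05 (0.947% and 5.15% of all probe sets). GSTU20 was the 1 that rose, from 48.3 and 65.4 to 112 and 162 (1.12 ± 0.22). It lost its call without replicate 2 at 21 h (0.88) or without replicate 1 at 9 h (0.94). GSTU25 (0.77 ± 0.19), ATGSTF13 (0.74 ± 0.20) and GSTU26 (0.65 ± 0.19) were the others, with GSTU25 at 0.46 without replicate 1 at 9 h (limma adjusted p = 0.306). The subtilase ATSBT5.2 went from 93.7 and 91.5 to 217 and 191 (1.05 ± 0.13), and to 0.97 without replicate 1 at 21 h. OCT1, a carnitine and cation transporter, went from 23.1 and 14.98 to 46.4 and 52.2 (1.02 ± 0.18). It stood at 0.82 without replicate 2 at 9 h, 0.95 without replicate 2 at 21 h and 0.94 after quantile normalization.

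The following rises were in genes without a symbol in the annotation. AT3G16800 had signals of 59.4 and 43.7 at 9 h and 497 and 535 at 21 h (3.09 ± 0.13, adjusted p = 1.14e-14), close to its 483 at 0.25 h of heat. AT5G15950 went from 23.1 and 40.7 to 248 and 243 (2.62 ± 0.15), and AT1G52060 from 22.7 and 27.7 to 142 and 152 (2.14 ± 0.19) after 498 at 0.25 h of heat. A pair of large rises rested on uneven arrays. AT1G73120 went from 5.75 and 4.60 to 36.0 and 253 (2.80 ± 0.46), and its difference was 4.05 without replicate 1 at 21 h and 1.56 without replicate 2. AT5G26270 went from 89.4 and 60.8 to 804 and 558 (3.01 ± 0.88, adjusted p = 0.0268), and lost its call when any of the 4 arrays was left out (limma adjusted p = 0.0948 to 0.144).

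Many of the groups examined had 0 members that passed in either direction. They were 21 tested genes of beta-glucosidases, endoplasmic reticulum bodies and glucosinolates, 18 of RNA polymerases and rRNA processing, 15 sugar carriers, 13 auxin and lateral organ genes, 23 calmodulin-like, ubiquitin ligase and WRKY genes, 23 of cell division and histones, 13 of metal uptake and storage, 17 serine carboxypeptidase-like genes, 8 of starch and sucrose and 8 common reference genes. In the first of these, the lectin JAL33 (882 and 636 against 1578 and 1398, 0.98 ± 0.16) and BCAT4, which starts the lengthening of methionine for glucosinolates (419 and 519 against 782 and 1004, 0.91 ± 0.19), lay close to the threshold. In that group 1 rose when any of the 4 arrays was left out and 2 rose after quantile normalization. Among the carboxypeptidase-like genes, SCPL49 (601 and 572 against 307 and 371, -0.78 ± 0.11) and scpl48 (588 and 513 against 366 and 294, -0.72 ± 0.13) were lower, and the wall invertase cwINV6 was higher (329 and 288 against 519 and 514, 0.73 ± 0.13), all at adjusted p below 0.05. Over the 16 lists in which 0 members passed limma's test, 74 of 309 members tested had an unadjusted p below 0.05. At adjusted p below 0.05, 16 were higher and 23 lower (5.15% and 5.04% of all probe sets). Over all probe sets 3717 of 16782 had an unadjusted p below 0.05.

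The shoots of the same times, on arrays that the root comparison does not share, showed which of these changes also occurred above ground. In shoots 379 probe sets rose (2.26%) and 500 fell (2.98%) over the same 12 h. Of the 159 that rose in roots, 38 also rose in shoots, which is 23.9% of the root list and 10.0% of the shoot list, and 0 fell there. Of the 188 that fell in roots, 58 also fell in shoots (30.9% and 11.6%) and 10 rose. As a description, the 2 tissues' differences correlated at 0.28 across all 16782 probe sets and at 0.63 across the 347 that passed in roots. In the test of the difference between tissues, 586 probe sets were higher in roots (3.49%) and 448 lower (2.67%). The higher ones included 80 of those that rose in roots, and the lower ones 86 of those that fell there. The difference went the other way for 9 of the risen and 13 of the fallen. The root arrays that chose these probe sets also enter the difference between tissues, which favours the same direction. These counts are therefore a description only. The 9 h shoot arrays differed from each other in 25S signal, at 88.6 on one and 1270 on the other.

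The steepest chaperone fall was found in both tissues, since ATHSP22.0 also fell in shoots (-3.74) and its difference between tissues did not pass (-0.81 ± 0.32, limma adjusted p = 0.081). The same held for PDC2, which fell by 2.85 in shoots, and for COR47, which fell by 1.33 there. HSA32 fell further in roots (difference -1.22 ± 0.33), and so did nad6 (-1.59 ± 0.20) and cox2 (-1.26 ± 0.25). The difference also passed for ccb206 (-1.28 ± 0.20), which fell in roots and was not lower in shoots. In shoots 3 of the 14 mitochondrion-encoded genes fell, with a median of -0.63. The HSA32 call between tissues ended when some single arrays were left out, and stood at -0.83 without replicate 2 of the shoots at 9 h (limma adjusted p = 0.0881).

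For several other genes the difference between tissues passed. GI rose in roots while the shoot signals were 50.3 and 39.9 at 9 h and 43.4 and 36.9 at 21 h (difference 1.50 ± 0.16, adjusted p = 1.41e-07). CHL fell further in shoots, from 1011 and 803 to 86.8 and 95.8 (difference 1.79 ± 0.20). COR27 went from 99.5 and 124 to 0.317 and 2.81 in shoots (difference 1.35 ± 0.29). Its 21 h signals lay under the added constant in both tissues, so that this difference rests mainly on the 9 h levels and gives no size of the falls themselves. NPF6.2 moved in opposite directions, falling in roots and rising in shoots from 250 and 285 to 685 and 580 (difference -2.59 ± 0.18, adjusted p = 1.02e-10). ICL had shoot signals of 1.68 to 1.86 at both times, so its fall was found in roots (difference -2.53 ± 0.39). PPDK was lower in roots and rose in shoots, from 275 and 326 to 638 and 664 (difference -1.86 ± 0.22). EXPB2 (2.37 ± 0.28), XTH18 (1.47 ± 0.38) and GH9C1 (1.28 ± 0.29) rose in roots and had a difference between tissues above 0, without a rise in shoots being implied. The XTH18 difference lost its call with a smaller added constant (1.26, limma adjusted p = 0.148). For EXPA7, the rise in roots did not differ from the change in shoots at this precision (0.24 ± 0.31).

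**Figure D5:**
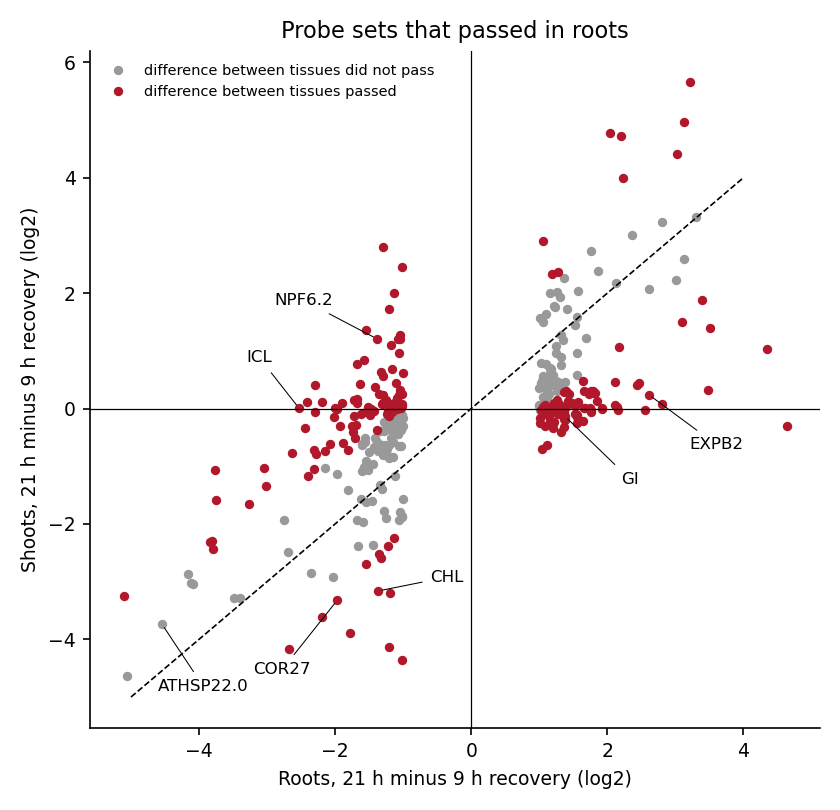
Log2 difference of 21 h minus 9 h of recovery in roots (x axis) and shoots (y axis) for the 347 probe sets that passed in roots; red points also passed the test of the difference between tissues and the dashed line marks equal differences. GI, EXPB2 and ICL lie near 0 in shoots, NPF6.2 lies on opposite sides of 0 and ATHSP22.0 lies near the line of equal differences.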

How the data were processed

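The authors deposited 1 table of MAS5 intensity values for 32 arrays, per the submitters' processing notes. The version is not given in the sources used here. Every deposited intensity was linear, with the same trimmed mean on each array, and was not normalized again. Of 22810 probe sets, 64 controls were left out and 13513 of the other 22746 had 1 named gene (503 several, 8730 none here). Names were updated through RefSeq by gene ID (13436) or locus (48), and 29 found no match. A probe set was kept if in at least 1 of the 16 groups its signal on each array exceeded the 40th percentile of that array (16782, of which 13785 passed through the 2 root groups). Of the probe sets that rose and fell, 150 of 159 and 185 of 188 were kept through the root groups themselves. The constant added before log2, 10.7, was each array's 25th percentile, taken as the median of the 32.

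Group means over all 32 arrays were fitted with limma 3.58.1 in R 4.3.3 (eBayes with a mean-variance trend, 16 residual degrees of freedom). The contrasts were roots, shoots and their difference, each adjusted by the Benjamini-Hochberg method over all probe sets kept. On simulated data for the root contrast (16782 probe sets), 98% of probe sets raised by 1.5 (log2), 92% lowered by 1.5, 100% raised by 2 and 94% lowered by 2 were recovered, with 0 false calls. The simulated noise was independent between arrays and had the residual spread of the real ones, and a call also needed the threshold of size. The 0 false calls are therefore no error rate for the calls in the real data. Tables and figures used Python 3.11.15, pandas 2.3.3, numpy 2.4.6 and matplotlib 3.10.9.

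The 29 gene lists and the genes described were chosen with earlier results of these data known. The planned lists held few genes that could be named, so they were rebuilt from genes with a symbol. Each locus was counted once, by its brightest probe set. The rule for named genes was the 15 largest changes each way among genes with a symbol whose arrays did not overlap between the times, the 5 largest each way among loci without one, up to 5 members per list and the 8 largest differences between tissues each way. Some were left out, and further list members near the thresholds, nad1 and ccb382 among them, were named after their values were seen. No arrays held identical values. Across 120 pairs of groups, deviations of same-numbered arrays correlated at -0.19 to 0.16 (0.11 for roots at 9 h and 21 h). The main fit did not pair arrays by replicate number. These correlations run over all probe sets kept, so they cannot exclude a pairing that touches few genes. Alternatives were another constant, filter, scaling, set of arrays, trend, replicate block and each array left out.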

Additional observations from a re-analysis of the deposited data

Results flagged for a closer look

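The results below were picked out because the change from 9 h to 21 h of recovery differed between roots and shoots by the limma test of that difference. Each value is the root difference minus the shoot difference on the log2 scale, from 2 arrays per group. Among genes that fell in roots, this value was below 0 for NPF6.2 (-2.59), ICL (-2.53), UGT84A1 (-1.62), nad6 (-1.59), nad5 (-1.49), SP1L5 (-1.28), ccb206 (-1.28), cox2 (-1.26), TIL (-1.24), HSA32 (-1.22), Fes1A (-1.08) and UGT78D2 (-1.08), and for the loci AT5G07330 (-2.71) and AT1G52560 (-1.52). They need not have fallen in shoots: NPF6.2 rose there, ICL had very low shoot signals at both times, and SP1L5, ccb206 and TIL were not lower there. Fes1A, HSA32 and AT1G52560 lost the call without replicate 2 of the shoots at 9 h, at -0.87, -0.83 and -1.02, the last on adjusted p alone. Without replicate 1 of the roots at 9 h, Fes1A (-0.99) and HSA32 (-1.09) lost it too. HSA32 also lost it without replicate 2 of the roots at 21 h (-1.13) or replicate 1 of the shoots at 21 h (-1.11). AT1G52560 stood at -0.82 with a smaller added constant. TIL fell under the threshold of size without replicate 2 of the roots at 21 h (-0.97).

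Genes that rose in roots and had a value above 0 were EXPB2 (2.37), UGT72E1 (1.54), GI (1.50), XTH18 (1.47), GH9C1 (1.28) and OCT1 (1.04), with the loci AT1G73120 (2.73), AT1G52060 (2.11) and AT3G16800 (1.59). They need not have risen in shoots, and UGT72E1 and GI were not higher there. AT1G73120 stood at 1.48 without replicate 2 of the roots at 21 h. OCT1 was under the threshold of size without replicate 2 of the roots at 9 h (0.84) or at 21 h (0.97), or without replicate 1 of the shoots at 9 h (0.99). XTH18 lost the call without replicate 1 of the roots at 9 h (1.16, limma adjusted p = 0.0606), and GH9C1 stood just under the threshold of size without replicate 2 of the shoots at 9 h (0.997). CHL (1.79) fell in both tissues and further in shoots, COR27 (1.35) fell in both to signals under the added constant at 21 h, and SCPL49 (1.93) fell in shoots, from 818 and 855 to 121 and 117.

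Of genes that did not pass in roots, the difference was lower in roots for PPDK (-1.86), MGL (-1.24), scpl48 (-1.16), petA (-1.04), cemA (-1.03) and MCCA (-1.02) and higher for GSTU26 (1.06). The calls of petA, cemA, MCCA and GSTU26 were near the threshold of size and each was lost without some single arrays.

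The largest differences belonged to genes that moved in shoots. AT3G62550 (5.14) went from 1250 and 1271 to 62.3 and 24.4 there, with root signals of 8.81 to 17.2. AT1G07050 (3.69) and AT4G34950 (3.44) also fell in shoots. AT1G55960 (-4.19) rose in shoots from 151 and 221 to 2312 and 2061 and was at 144 and 134 against 95.0 and 70.8 in roots. AT1G66100 (-3.81) and the thionin THI2.2 (-3.65), an antimicrobial peptide, rose in shoots from signals of 73.7 to 178 to signals of 950 to 2164, with root signals of 1.70 to 15.2.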

How the results depend on the processing

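With a constant 4 times as large, 75 probe sets rose and 108 fell in roots, 264 fell in shoots, and 276 were higher and 283 lower in roots than in shoots. With probe sets filtered on the 2 root groups alone, 243 rose in shoots, where fewer were tested. Leaving out each array in turn gave 145 to 211 risen and 161 to 216 fallen in roots, 366 to 431 and 461 to 633 in shoots, and 527 to 769 higher and 422 to 506 lower in the difference between tissues. With the replicate number as a block, 160 rose and 188 fell in roots. Of 93 named results that passed, 54 passed under every alternative run and 39 were lost under at least 1, 31 of them with the larger constant, and 0 changed sign. A description of promoter motifs was planned and not run, since no promoter sequences were used here. Low signals, as for COR27 at 21 h, lie under the added constant, and their differences are understated.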
